A study of Homo sapiens with 18 samples.

Results

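Epithelial to mesenchymal transition is the programme by which cells bound in an epithelial sheet loosen their junctions and take on the shape and movement of mesenchymal cells. The 10 genes described here were chosen by symbol as its transcription factors and markers, and all 10 are among the 31004 genes of the count table. They are the Snail family genes SNAI1, SNAI2 and SNAI3, ZEB1 with its divergent antisense transcript ZEB1-AS1, the transcription factor genes FOXF1 and RUNX2, and the marker genes VIM, CDH2 and FN1. RNA was sequenced from HCT116, a long-established line of human colorectal carcinoma cells, in 18 libraries that form 6 groups of 3 replicates. The cells were lines selected with puromycin after lentiviral transduction, and they carried the long noncoding RNA CRLM1 (LINC01767), its antisense sequence or the empty control vector (Ctrl). Each of these backgrounds was then transfected with a construct that expresses the RNA and DNA binding protein hnRNPK or with its negative control construct (NC). The groups are named Ctrl_NC, CRLM1_NC, Antisense_NC, Ctrl_hnRNPK, CRLM1_hnRNPK and Antisense_hnRNPK. All of them are 1 cell line, each background was selected for an integrated vector, and hnRNPK is added to what the cells already make. Whether replicates came from separate cultures is not given in the labels, so p-values measure the spread between these libraries.

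In textbook accounts, Snail and ZEB proteins are zinc finger repressors that bind E-box sequences and silence epithelial genes such as CDH1, the gene of E-cadherin. Their target cells lose E-cadherin, gain N-cadherin (CDH2) and vimentin (VIM), and lay down fibronectin (FN1). In colorectal carcinoma the programme is studied mainly for its part in invasion and spread. HCT116 cells keep an epithelial form in culture.

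Total counts per library ran from 19732681 to 27039520. HNRNPK had 424 to 480 CPM (counts scaled to a common library size by TMM) in the 9 NC libraries and 491 to 713 CPM in the 9 hnRNPK libraries. LINC01767 was at 0 in the 6 Ctrl libraries, at 579.9 to 658 CPM in the 6 CRLM1 libraries and at 39.1 to 50.0 CPM in the 6 Antisense libraries. Of 6 colorectal epithelial markers (CDH1, EPCAM, KRT8, KRT18, KRT19 and VIL1), 5 were over 1 CPM in every group and VIL1 was not, and their sum ran from 3490 CPM in Antisense_hnRNPK to 9276 CPM in CRLM1_hnRNPK. Of 6 fibroblast markers in the table, COL1A1 alone was over 1 CPM and the list summed to 11.5 to 32.9 CPM, and the endothelial list summed to at most 0.525 CPM. The leukocyte gene PTPRC had at most 1 count in any library. The third libraries of Ctrl_hnRNPK and CRLM1_hnRNPK stood apart from their groups. Across 12959 genes, Pearson's r of log2 CPM for the former was 0.949 to 0.956 against its 2 fellow replicates and 0.988 to 0.989 against the Ctrl_NC libraries. For the latter the values were 0.941 to 0.948 and, against CRLM1_NC, 0.982. Results that rest on these libraries are given with and without them.

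The genes differed widely in level. Levels between genes are compared per length, as FPKM (fragments divided by exon length and by library size). Over the 18 libraries SNAI1 had the highest median at 9.61 FPKM (range 2.13 to 13.9), and it exceeded 87.8% of the listed genes. FN1 followed at 1.90 FPKM (0.95 to 2.68). RUNX2, VIM and SNAI3 had medians of 0.675, 0.635 and 0.63 FPKM. The ranges of these 3 genes overlapped. ZEB1-AS1 (0.49), FOXF1 (0.415), ZEB1 (0.32) and SNAI2 (0.19 FPKM) came next, each overlapping its neighbour in range, and CDH2 had a median of 0.

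**Figure D1:**
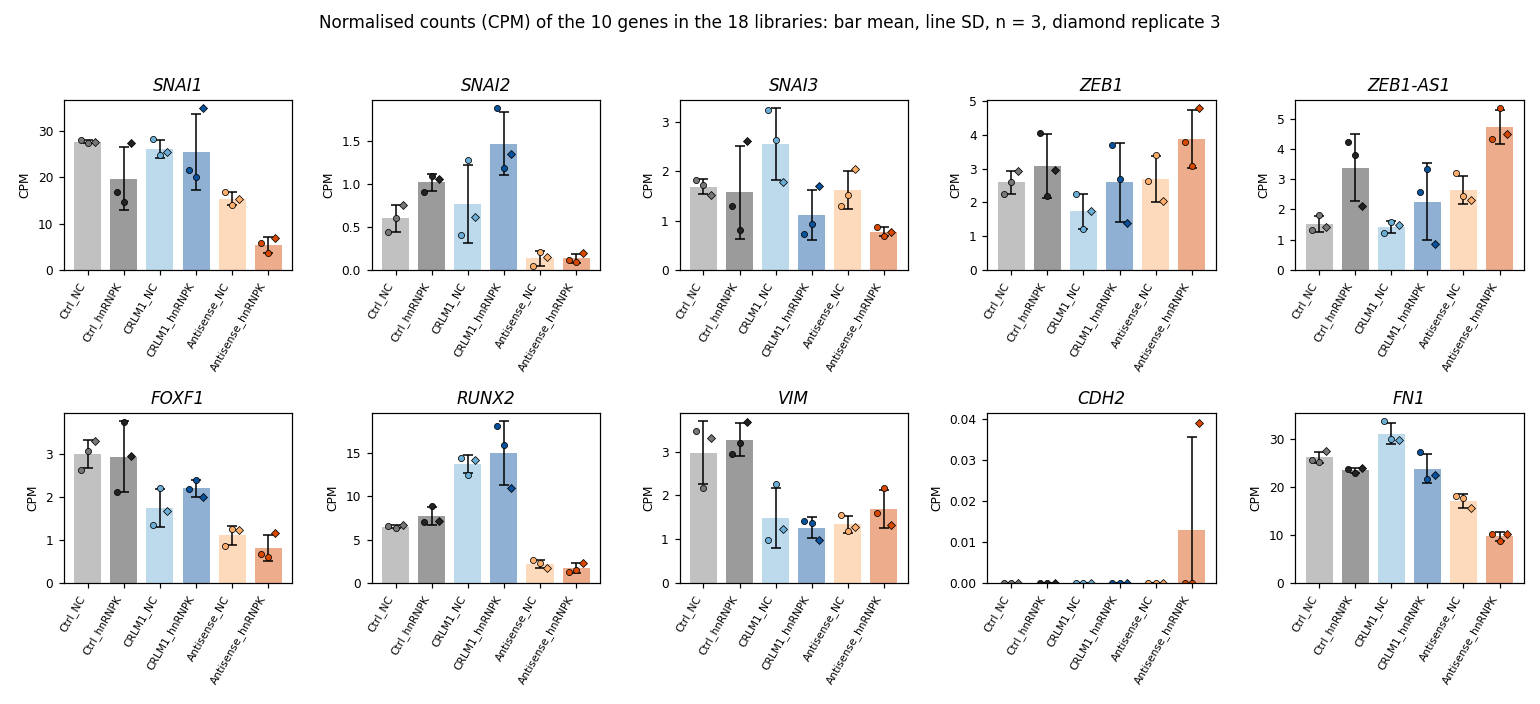
Normalised counts (CPM) of each gene in the 18 libraries by group, with the bar at the mean of 3 replicates, the line at the SD, circles for replicates 1 and 2 and diamonds for replicate 3. RUNX2 is highest in the CRLM1 groups, SNAI1 and FN1 are lowest in Antisense_hnRNPK, SNAI2 is near 0 in both Antisense groups and CDH2 has 1 read in all.

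SNAI1 (ENSG00000124216.3, chr20:49982980-49988886, plus strand of GRCh38) encodes Snail, a repressor of CDH1. With the NC construct, the 3 Ctrl libraries had 28.2, 27.3 and 27.7 CPM. The CRLM1_NC libraries had 28.4, 24.7 and 25.4 CPM, and the Antisense_NC libraries had 16.8, 14.02 and 15.4 CPM. Ctrl_NC and CRLM1_NC overlapped, and every Antisense_NC library lay under both. With hnRNPK, the values were 16.9, 14.7 and 27.4 CPM in the Ctrl background. They were 21.6, 20.0 and 34.9 CPM in the CRLM1 background and 5.87, 3.60 and 6.97 CPM in the Antisense background. The third library was the highest of its group in all 3 hnRNPK groups, and Antisense_hnRNPK lay under every other group. SNAI1 spanned 5.06-fold between the highest group mean (27.7 ± 0.410 CPM, SD, n = 3, Ctrl_NC) and the lowest (5.48 ± 1.72, SD, n = 3, Antisense_hnRNPK).

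SNAI2 (ENSG00000019549.8, chr8:48917598-48921740, minus strand) encodes Slug, a relative of Snail, and the filter on low counts removed it from each comparison of 2 groups that held an Antisense group, as fitted with all libraries. The reads counted were 8, 15 and 17 in Ctrl_NC, 9, 28 and 12 in CRLM1_NC and 1, 5 and 3 in Antisense_NC. With hnRNPK they were 21, 27 and 21 in Ctrl, 41, 24 and 30 in CRLM1 and 3, 3 and 5 in Antisense. A count of 0 allows up to 3 reads, so the Antisense libraries, at 1 to 5 reads, sat around that floor, which was 0.0972 to 0.165 CPM across libraries. These floors cover counting error only. Where every library was over the floor, the means were 0.600 ± 0.159 CPM in Ctrl_NC, 0.762 ± 0.452 in CRLM1_NC, 1.02 ± 0.0979 in Ctrl_hnRNPK and 1.46 ± 0.364 in CRLM1_hnRNPK (SD, n = 3 each). Ctrl_NC and CRLM1_NC overlapped, as did CRLM1_NC and CRLM1_hnRNPK, and every Ctrl_hnRNPK library lay over Ctrl_NC. Between hnRNPK and NC its log2 difference was 0.72 in Ctrl (SE 0.365, adjusted p = 0.335) and 0.98 in CRLM1 (SE 0.45, adjusted p = 0.533), and neither passed with all libraries.

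SNAI3 (ENSG00000185669.5, chr16:88677688-88686507, minus strand), the least studied of the Snail genes, was measurable in every library at 16 to 72 reads. It had 1.82, 1.72 and 1.52 CPM in Ctrl_NC, 3.23, 2.63 and 1.78 in CRLM1_NC and 1.29, 1.52 and 2.05 in Antisense_NC. The 3 NC groups overlapped. With hnRNPK it had 1.30, 0.808 and 2.62 CPM in Ctrl, 0.732, 0.934 and 1.70 in CRLM1 and 0.871, 0.680 and 0.779 in Antisense. The third library was again the highest in the Ctrl and CRLM1 backgrounds. SNAI3 shares 10.2% of its exon bases with SNAI3-AS1 on the other strand. Whether the counting used strand is not stated, so their reads cannot be told apart there.

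ZEB1 (ENSG00000148516.21, chr10:31318495-31529814, plus strand) and ZEB1-AS1 (ENSG00000237036.4, chr10:31206278-31320447, minus strand) start head to head and overlap. ZEB1 is a repressor of CDH1 and of epithelial microRNA genes, and ZEB1-AS1 is a long noncoding RNA. In each, 396 exon bases lie on exons of opposite-strand genes, the partner among them, which is 4.58% of the exon bases of ZEB1 and 10.3% of those of ZEB1-AS1. RefSeq promoter windows (GRCh38.p14) were found for 6 of the 10 genes, 7 of them for ZEB1 and 2 for ZEB1-AS1, and the bases before the start that no Gencode version 44 untranslated exon covers were read from them. The sequences below show the shared locus because both genes start in it. They run 5′ to 3′ on the strand of the gene, from chr10:31318167-31318416 (plus) for the most upstream ZEB1 start and from chr10:31320448-31320697 (minus) for ZEB1-AS1. Capitals mark 2 motifs searched on both strands, the E-box CAGGTG or CACCTG and the GC box GGGCGG or CCGCCC.
ZEB1: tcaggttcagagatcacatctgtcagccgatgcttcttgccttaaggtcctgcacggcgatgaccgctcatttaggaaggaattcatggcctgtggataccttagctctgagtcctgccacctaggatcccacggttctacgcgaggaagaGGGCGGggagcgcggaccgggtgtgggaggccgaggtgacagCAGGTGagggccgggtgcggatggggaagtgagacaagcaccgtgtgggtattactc
ZEB1-AS1: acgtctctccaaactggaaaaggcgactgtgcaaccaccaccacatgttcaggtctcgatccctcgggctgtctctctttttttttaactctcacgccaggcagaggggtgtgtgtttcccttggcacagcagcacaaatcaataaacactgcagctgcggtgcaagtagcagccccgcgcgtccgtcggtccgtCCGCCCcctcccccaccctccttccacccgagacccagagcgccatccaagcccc
The ZEB1 stretch held 1 E-box match, beginning at position -57 from the start, and 1 GC box match. The ZEB1-AS1 stretch held no E-box match and 1 GC box match. Of the windows not printed, the E-box also matched in 1 of ZEB1 (chr10:31318966-31319124, position -242) and in the other of ZEB1-AS1 (chr10:31319235-31319345, position -159). Of all 34943 windows, 17.5% held the E-box and 42.5% the GC box in the 250 bases before the start. A match describes letters and not a bound site.

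In expression, ZEB1 had 2.26, 2.60 and 2.94 CPM in Ctrl_NC, 2.25, 1.23 and 1.73 in CRLM1_NC and 2.63, 3.42 and 2.05 in Antisense_NC. With hnRNPK it had 4.06, 2.18 and 2.97 CPM in Ctrl, 3.70, 2.70 and 1.38 in CRLM1 and 3.79, 3.08 and 4.79 in Antisense. CRLM1_NC had the lowest mean and Antisense_hnRNPK the highest, groups next to each other in that order overlapped, and the lowest Ctrl_NC library lay just over the highest of CRLM1_NC. ZEB1-AS1 had 1.32, 1.80 and 1.43 CPM in Ctrl_NC, 1.21, 1.59 and 1.48 in CRLM1_NC and 3.19, 2.45 and 2.30 in Antisense_NC. The Antisense_NC libraries all lay over both of the other NC groups. With hnRNPK it had 4.23, 3.80 and 2.12 CPM in Ctrl, 2.56, 3.34 and 0.848 in CRLM1 and 4.32, 5.35 and 4.48 in Antisense. Here the third library was the lowest of the Ctrl and CRLM1 backgrounds. The number of ZEB1-AS1 reads per ZEB1 read ran from 0.485 to 0.692 in Ctrl_NC and from 0.712 to 1.74 in Ctrl_hnRNPK, without overlap. The constructs overlapped in the CRLM1 background (0.54 to 1.30 with NC and 0.613 to 1.24 with hnRNPK) and in the Antisense background (0.716 to 1.21 and 0.935 to 1.74).

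FOXF1 (ENSG00000103241.6, chr16:86510527-86515422, plus strand) encodes a forkhead factor of mesenchyme beside the gut epithelium. It had 2.64, 3.08 and 3.30 CPM in Ctrl_NC, 1.35, 2.22 and 1.68 in CRLM1_NC and 0.861, 1.27 and 1.23 in Antisense_NC. The 3 NC groups did not overlap. Under hnRNPK it had 2.12, 3.76 and 2.97 CPM in Ctrl, 2.20, 2.41 and 2.01 in CRLM1 and 0.682, 0.616 and 1.17 in Antisense. Within each background the hnRNPK and NC libraries overlapped. Its divergent neighbour FENDRR had at most 1 read in any library.

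RUNX2 (ENSG00000124813.20, chr6:45328157-45664349, plus strand) encodes a runt domain factor known for bone formation. It had the widest spread among the 8 genes with at least 10 reads in every library. Its levels were 6.56, 6.36 and 6.64 CPM in Ctrl_NC, 14.4, 12.5 and 14.2 in CRLM1_NC and 2.67, 2.32 and 1.74 in Antisense_NC. No library of one NC group came near another. The hnRNPK groups had 7.08, 8.89 and 7.10 CPM in Ctrl, 18.1, 15.9 and 10.9 in CRLM1 and 1.33, 1.49 and 2.38 in Antisense. The order CRLM1, Ctrl, Antisense held with both constructs and without overlap. Group means spanned 8.65-fold, from 1.73 ± 0.565 CPM (SD, n = 3) in Antisense_hnRNPK to 15.0 ± 3.66 (SD, n = 3) in CRLM1_hnRNPK.

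VIM (ENSG00000026025.13, chr10:17228241-17237593, plus strand) encodes vimentin, the intermediate filament of mesenchymal cells, and was low in all groups at 22 to 79 reads a library. It had 3.47, 2.16 and 3.30 CPM in Ctrl_NC, 0.988, 2.27 and 1.22 in CRLM1_NC and 1.55, 1.18 and 1.28 in Antisense_NC. With hnRNPK it had 2.94, 3.19 and 3.68 CPM in Ctrl, 1.42, 1.38 and 0.982 in CRLM1 and 1.59, 2.17 and 1.32 in Antisense. The Ctrl libraries were over the CRLM1 and Antisense libraries except for CRLM1_NC replicate 2, which lay over Ctrl_NC replicate 2, and Antisense_hnRNPK replicate 2, which lay just over it. VIM shares 24.6% of its exon bases with VIM-AS1 and another gene on the opposite strand, and VIM-AS1 had 0 to 28 reads a library.

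CDH2 (ENSG00000170558.8, chr18:27932879-28177946, minus strand) encodes N-cadherin, and its appearance beside E-cadherin is the usual sign of the transition. It had 0 reads in 17 of the 18 libraries and 1 read in Antisense_hnRNPK replicate 3. Every group is therefore under the floor of 3 reads, and no level or difference was measurable at this depth. CDH1 was at 97.8 to 186 CPM as a mean in all 6 groups.

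FN1 (ENSG00000115414.18, chr2:215360440-215436073, minus strand) encodes fibronectin of the extracellular matrix. It had 25.6, 25.3 and 27.5 CPM in Ctrl_NC, 33.6, 29.9 and 29.7 in CRLM1_NC and 18.2, 17.6 and 15.5 in Antisense_NC. None of the 3 NC groups overlapped. The hnRNPK groups had 23.6, 22.8 and 23.9 CPM in Ctrl, 27.3, 21.7 and 22.4 in CRLM1 and 10.2, 8.68 and 10.3 in Antisense. Each hnRNPK group lay under the NC group of its background, and the third libraries did not stand apart. The promoter stretches of VIM and FN1 are shown because they are the structural markers that were measured. VIM is read from chr10:17227991-17228240 (plus) and FN1 from chr2:215436074-215436318 (minus), with the same motifs in capitals.
VIM: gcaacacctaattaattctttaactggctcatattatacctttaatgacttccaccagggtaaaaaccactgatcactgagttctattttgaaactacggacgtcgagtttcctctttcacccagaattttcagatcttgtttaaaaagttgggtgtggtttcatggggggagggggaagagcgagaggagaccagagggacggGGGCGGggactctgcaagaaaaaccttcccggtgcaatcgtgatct
FN1: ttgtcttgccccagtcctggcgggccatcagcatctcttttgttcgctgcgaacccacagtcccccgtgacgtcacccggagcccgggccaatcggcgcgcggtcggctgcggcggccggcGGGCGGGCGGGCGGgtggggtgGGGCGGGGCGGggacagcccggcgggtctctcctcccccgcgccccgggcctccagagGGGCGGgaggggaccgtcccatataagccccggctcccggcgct
Neither stretch held an E-box match. The GC box matched once in VIM and 6 times in FN1, where matches overlap, and GC content was 46.0% for VIM and 76.3% for FN1. No window was found for SNAI1, SNAI2, SNAI3 and FOXF1.

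The comparison of CRLM1_NC with Ctrl_NC asks what stable CRLM1 does on its own. The adjusted p-values are those of edgeR (quasi-likelihood F-test), corrected by the Benjamini-Hochberg method across every gene that entered the comparison, and a gene is said to rise or fall when its adjusted p is at most 0.05. Of the 9 genes tested, 4 passed, beside 34.3% of all 14459 genes tested. RUNX2 rose by 1.06 on the log2 scale (SE 0.126, adjusted p = 9.0e-09), which is 2.08-fold. FN1 rose by 0.23 (SE 0.0781, adjusted p = 0.0171). In the other direction, VIM fell by 0.99 (SE 0.286, adjusted p = 0.00594) and FOXF1 fell by 0.80 (SE 0.252, adjusted p = 0.0119). At 2-fold or more, RUNX2 was the only member called, against 1.58% of all genes, and VIM stood just under that size at 1.99-fold. VIM reached it under DESeq2, with the replicate block, with the trend in GC content and length removed, where RUNX2 did not, and without Ctrl_NC replicate 2 or CRLM1_NC replicate 2, the last together with FOXF1. The Snail and ZEB genes did not pass with all libraries. Their log2 differences were -0.10 for SNAI1 (adjusted p = 0.373), 0.32 for SNAI2 (0.644), 0.59 for SNAI3 (0.0859), -0.60 for ZEB1 (0.0751) and -0.11 for ZEB1-AS1 (0.816). For SNAI1 the 95% interval of the difference ran from -0.25 to 0.06. In a fit of all 18 libraries, where the spread of the hnRNPK groups enters, RUNX2 alone still passed. Of all 15668 genes in that fit, 53 were higher and 49 lower past the test. Without CRLM1_NC replicate 1, 2 genes passed, beside 2114 higher and 2170 lower of all 14746 genes. These were RUNX2 and, as a lower call gained, ZEB1, and VIM, FOXF1 and FN1 were lost. FOXF1 was also lost without Ctrl_NC replicate 3. FN1 was also lost after the trend with GC content and length was removed (log2 difference 0.14, adjusted p = 0.173), and without Ctrl_NC replicate 1 or 2. With that trend removed SNAI3 rose by 0.73 (SE 0.269, adjusted p = 0.0335) and ZEB1 fell by 0.70 (SE 0.265, adjusted p = 0.0369), and SNAI3 also passed without CRLM1_NC replicate 3.

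CRLM1_NC was also compared with Antisense_NC, the control in which the same sequence is transcribed the other way. Of 8 genes tested, 6 passed, against 56.4% of all 14364 genes tested. RUNX2 rose by 2.63 (SE 0.159, adjusted p = 7.2e-17), or 6.19-fold. FN1 rose by 0.90 (SE 0.0878, adjusted p = 4.4e-11), SNAI1 by 0.80 (SE 0.0939, adjusted p = 2.9e-09) and SNAI3 by 0.71 (SE 0.27, adjusted p = 0.0239). ZEB1-AS1 fell by 0.86 (SE 0.262, adjusted p = 0.00547) and ZEB1 by 0.61 (SE 0.263, adjusted p = 0.0478). FOXF1 had a log2 difference of 0.69 (adjusted p = 0.0647) and VIM of 0.20 (adjusted p = 0.634). SNAI2 was removed by the filter on low counts. With no filter 7 of 9 genes passed, SNAI2 among them, beside 3628 higher and 4310 lower of 25676 genes. Its Antisense_NC libraries were around the floor at 1 to 5 reads, so no fold is given. ZEB1 lost its call under 8 of 12 alternatives and SNAI3 under 6 of 12, leaving out single libraries among them. At 2-fold or more RUNX2 alone was called, beside 7.18% of all genes. Without Antisense_NC replicate 1, SNAI3, ZEB1 and ZEB1-AS1 were lost. The 4 genes that passed there, beside 3434 higher and 3829 lower of 14626 genes, included SNAI2. The filter then kept SNAI2 through CRLM1_NC, with 5 and 3 reads in the Antisense_NC libraries, so no fold is given. Without CRLM1_NC replicate 2, 4 genes passed, beside 3623 higher and 3923 lower of 14632 genes, and SNAI3 and ZEB1 were lost.

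The 2 control backgrounds themselves differed. In Antisense_NC against Ctrl_NC, 6 of 8 genes passed, against 66.5% of all 14389 genes tested. RUNX2 fell by 1.57 (SE 0.186, adjusted p = 2.2e-09), FOXF1 by 1.48 (SE 0.261, adjusted p = 5.4e-06) and VIM by 1.18 (SE 0.26, adjusted p = 1.4e-04). SNAI1 fell by 0.90 (SE 0.0896, adjusted p = 4.3e-11) and FN1 by 0.66 (SE 0.0889, adjusted p = 4.3e-08), while ZEB1-AS1 rose by 0.74 (SE 0.254, adjusted p = 0.0101), a call lost without Antisense_NC replicate 1. ZEB1 differed by 0.01 (95% interval -0.44 to 0.46) and SNAI3 by -0.11 (-0.67 to 0.44). RUNX2, FOXF1 and VIM differed by 2-fold or more, beside 14.1% of all genes. With no filter on low counts SNAI2 also passed, beside 5103 higher and 4454 lower of 25673 genes. It had the same low reads in Antisense_NC, so no fold is given. These 3 comparisons share libraries, so their values stand side by side and do not support each other. SNAI1 differed between CRLM1_NC and Antisense_NC but its difference from Ctrl_NC did not pass, whereas RUNX2 passed in all 3. VIM and FOXF1 fell against Ctrl_NC in both CRLM1_NC and Antisense_NC.

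**Figure D2:**
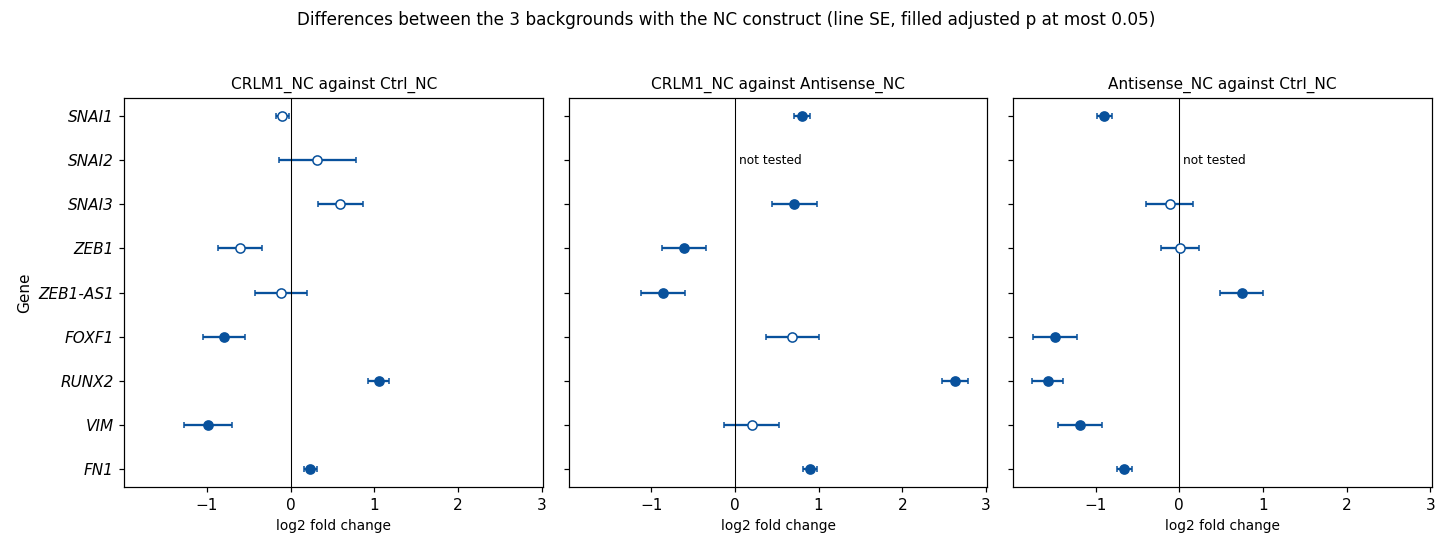
log2 fold changes of 9 genes between the 3 backgrounds with the NC construct, on the x axis, with lines for the SE and filled points for an adjusted p of at most 0.05. RUNX2 lies at 1.06 and 2.63 in the CRLM1 comparisons and at -1.57 in Antisense_NC against Ctrl_NC, and SNAI2 was removed by the filter in the 2 comparisons with Antisense_NC.

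The hnRNPK construct was compared with NC inside each background. In the Ctrl background with all libraries, 0 of 9 genes passed edgeR's test, as did 0% of all 14607 genes, and 2 of the 9 had an unadjusted p under 0.05. DESeq2 also called 0 of the 9. Those with an unadjusted p under 0.05 were ZEB1-AS1, with a log2 difference of 1.13 (SE 0.322, adjusted p = 0.32), and SNAI1, with -0.52 (SE 0.228, adjusted p = 0.324). Without Ctrl_hnRNPK replicate 3, 2 genes passed, beside 59.6% of 15004 genes. SNAI1 fell by 0.78 (SE 0.109, adjusted p = 6.9e-06) and ZEB1-AS1 rose by 1.41 (SE 0.254, adjusted p = 1.2e-04). RUNX2, VIM and FN1 differed by 0.32, 0.08 and -0.15 there, and none passed.

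In the CRLM1 background with all libraries, again 0 of 9 genes passed edgeR's test, and 0% of all 14394 genes. DESeq2 called 0 of the 9, and 1 gene, SNAI3, had an unadjusted p under 0.05 (log2 difference -1.15, SE 0.375, adjusted p = 0.533). SNAI1 differed by 0.00 with an SE of 0.231, and the sign depended on the scaling. Without CRLM1_hnRNPK replicate 3, 7 of 9 genes passed, beside 58.5% of 14685 genes. ZEB1-AS1 rose by 1.09 (SE 0.287, adjusted p = 0.00166), SNAI2 by 1.04 (SE 0.432, adjusted p = 0.0394), ZEB1 by 0.93 (SE 0.285, adjusted p = 0.00605) and RUNX2 by 0.36 (SE 0.12, adjusted p = 0.0112). SNAI3 fell by 1.57 (SE 0.349, adjusted p = 3.1e-04), FN1 by 0.29 (SE 0.101, adjusted p = 0.0135) and SNAI1 by 0.28 (SE 0.101, adjusted p = 0.0178). FOXF1 and VIM did not pass, at 0.44 and -0.05.

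The Antisense background had no library that stood apart in this way. Of 8 genes tested, 4 passed, against 63.9% of all 14501 genes tested. SNAI1 fell by 1.51 (SE 0.188, adjusted p = 9.8e-06), SNAI3 by 1.06 (SE 0.308, adjusted p = 0.00793) and FN1 by 0.82 (SE 0.121, adjusted p = 3.8e-05). ZEB1-AS1 rose by 0.83 (SE 0.2, adjusted p = 0.00231). ZEB1 differed by 0.50 (adjusted p = 0.0708), VIM by 0.35, RUNX2 by -0.39 and FOXF1 by -0.46, and none of these passed. SNAI1 and SNAI3 differed by 2-fold or more, beside 13.4% of all genes. RUNX2 passed when Antisense_hnRNPK replicate 3 was left out (log2 difference -0.72, SE 0.287, adjusted p = 0.0379). That made 5 genes, beside 62.3% of 14851 genes. ZEB1 passed without Antisense_hnRNPK replicate 2 and without Antisense_NC replicate 2.

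**Figure D3:**
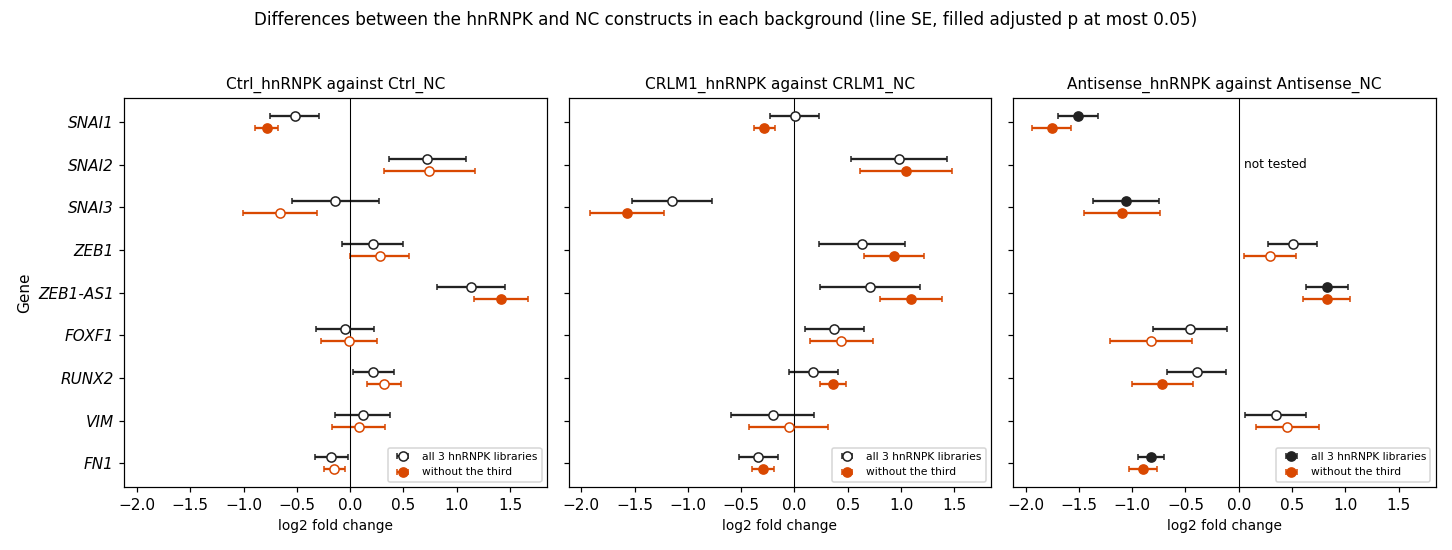
log2 fold changes of 9 genes for hnRNPK against NC in the Ctrl, CRLM1 and Antisense backgrounds, on the x axis, with lines for the SE and filled points for an adjusted p of at most 0.05, with all libraries (black) and without the third hnRNPK library (orange). With all libraries 0, 0 and 4 genes passed, and without the third library 2, 7 and 5.

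These hnRNPK differences followed the GC content of the transcripts across all genes. Spearman's rho between log2 fold change and the GC content of the longest transcript was -0.71 over 14433 genes in the Ctrl background, -0.63 over 14235 genes in the CRLM1 background and -0.71 over 14337 genes in the Antisense background. Genes of one library share its preparation and are not independent replicates, so this is a description. SNAI3 (65.3% GC) and SNAI1 (58.4%) are rich in GC, and ZEB1 (38.4%), SNAI2 (41.4%), FN1 (42.2%) and ZEB1-AS1 (44%) are poor in it. FN1 fell in the Antisense background, where the median of genes under 45% GC was 0.59. After the trend with GC content and length was removed there, 2 of 8 genes passed, beside 39.3% of all genes. SNAI1 fell by 1.04 (SE 0.197, adjusted p = 0.00128) and FN1 by 1.31 (SE 0.116, adjusted p = 9.7e-06). SNAI3, ZEB1-AS1 and ZEB1 then had log2 differences of -0.43, 0.45 and -0.14 and did not pass. With the trend removed and the third library left out, 3 of 9 genes passed in the Ctrl background, beside 27.1% of 15004 genes. These were FN1 (-0.66, adjusted p = 8.1e-05), SNAI1 (-0.35, adjusted p = 0.0209) and ZEB1-AS1 (1.04, adjusted p = 0.00504). In the CRLM1 background 2 of 9 passed, beside 27.1% of 14685 genes. They were FN1 (-0.76, adjusted p = 4.5e-07) and SNAI3 (-0.98, adjusted p = 0.0382), and SNAI1 stood at 0.14 (adjusted p = 0.316). The part of the GC trend in each result was not tested beyond these fits.

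**Figure D4:**
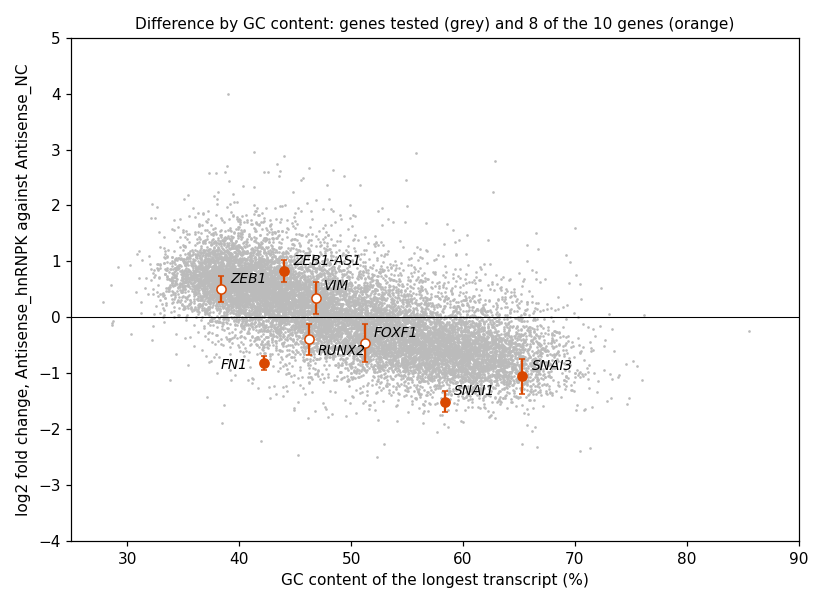
GC content of the longest transcript in percent (x axis) and log2 fold change of Antisense_hnRNPK against Antisense_NC (y axis) for the genes tested (grey) and for 8 of the 10 genes (orange, lines for the SE, filled for an adjusted p of at most 0.05). The grey points fall from left to right (rho -0.71). FN1 (42.2% GC) lies at -0.82, and the median of genes under 45% GC was 0.59. SNAI1 (58.4% GC) lies at -1.51, and the median of genes over 55% GC was -0.58.

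Interaction terms tested whether the hnRNPK effect differed between backgrounds. Between CRLM1 and Ctrl, 0 of 9 genes passed with edgeR and with DESeq2, none had an unadjusted p under 0.05, and 0% of all 15188 genes passed. Without the third library of both hnRNPK groups SNAI1 passed, with a difference of 0.53 (SE 0.144, adjusted p = 0.0368), beside 3.45% of 15485 genes. It did not pass when the GC trend was also removed (0.50, adjusted p = 0.0659). Between CRLM1 and Antisense, SNAI1 was the 1 gene of 9 that passed with all libraries, against 1.12% of all 15233 genes. SNAI2 entered this fit through the CRLM1 groups and did not pass (1.00, SE 0.873, adjusted p = 0.549). The hnRNPK effect on SNAI1 was higher by 1.498 log2 units with CRLM1 than with Antisense (SE 0.331, adjusted p = 0.0432). The difference was 1.44 (adjusted p = 6.4e-06) without the third library of both groups and 1.21 (adjusted p = 0.00411) after removal of the GC trend, where FN1 also passed (0.80, adjusted p = 0.0246), beside 12.2% of all genes. The call was lost in 8 of the 9 fits that left out 1 library of the CRLM1_NC, Antisense_NC or Antisense_hnRNPK groups. In each of those 8 fits at most 1 gene of all tested was higher and at most 1 lower past the test. RUNX2 (1.04, adjusted p = 0.00469) and FN1 (0.57, adjusted p = 0.0122) also passed without the third libraries, beside 26.5% of 15489 genes.

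Other genes of the programme were read from 4 lists. Of all genes tested, 34.3% passed in CRLM1_NC against Ctrl_NC, 56.4% in CRLM1_NC against Antisense_NC and 66.5% in Antisense_NC against Ctrl_NC. For hnRNPK in the Antisense background 63.9% passed. Among other transcription factors, TWIST1 was measurable at 27 to 104 reads a library and ZEB2, a close relative of ZEB1, had at most 1 read. TWIST2, TCF4, PRRX1 and GSC were not in the count table. In CRLM1_NC against Ctrl_NC, 0 rose and 3 fell of 6 tested (median log2 difference -0.20, against 0.01 over all genes). FOXC1 fell by 0.70 (adjusted p = 1.6e-13), SOX9 by 0.41 (6.0e-14) and TCF3 by 0.18 (5.4e-05). In Antisense_NC against Ctrl_NC, 1 rose and 3 fell of 5, with SOX9 falling by 1.13 (adjusted p = 4.7e-26). SOX9 rose by 0.73 in CRLM1_NC against Antisense_NC (adjusted p = 1.5e-19), where 2 rose and 2 fell of 5. Under hnRNPK in the Antisense background 0 rose and 3 fell of 5, and TWIST1 fell by 1.05 (adjusted p = 0.00788), SOX9 by 1.04 (3.0e-06) and TCF3 by 1.02 (2.0e-07).

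Mesenchymal matrix, adhesion and cytoskeleton genes gave different counts against the 2 controls. In CRLM1_NC against Antisense_NC, 15 rose and 0 fell of 17 tested (median 0.70, against -0.0034 over all genes), beside 56.4% of all genes. One of the 17, TGFBI, passed the filter only through CRLM1_NC, and without it 14 rose of 16. CYR61 rose by 2.03 (adjusted p = 2.0e-32), CTGF by 1.94 (6.8e-22), VCAN by 1.17 (6.5e-19) and FBN1 by 1.16 (0.00157). CYR61 and CTGF encode secreted matricellular proteins, and VCAN and FBN1 encode versican and fibrillin of the matrix. In Antisense_NC against Ctrl_NC, 0 rose and 12 fell of 16 (median -0.46), beside 66.5% of all genes. CYR61 fell by 2.67 (adjusted p = 8.2e-37), CTGF by 2.39 (6.0e-26) and VCAN by 1.74 (2.0e-25). In CRLM1_NC against Ctrl_NC, 5 rose and 8 fell of 17 (median -0.06), or 4 and 8 of 16 without TGFBI. FBN1 rose by 1.62 (adjusted p = 2.6e-04), NT5E by 0.72 (1.6e-12) and ACTA2, the smooth muscle actin, by 0.71 (4.9e-04), and S100A4 fell by 0.69 (1.1e-15). Under hnRNPK in the Antisense background 4 rose and 8 fell of 16. CYR61 fell by 1.64 (adjusted p = 1.5e-05), CTGF by 1.32 (1.0e-05) and ITGA5 by 1.05 (1.5e-07), while NT5E rose by 1.12 (7.1e-04).

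The transforming growth factor beta pathway can induce SNAI1. In CRLM1_NC against Ctrl_NC, 3 of its genes fell and 0 rose of 10 tested, beside 34.3% of all genes. TGFB1, its main ligand gene, fell by 0.27 (adjusted p = 9.7e-09), SMAD7, the inhibitory mediator, by 0.37 (0.0207) and SMAD3 by 0.21 (4.0e-07). In CRLM1_NC against Antisense_NC, 4 rose and 3 fell, with SMAD7 rising by 0.96 (adjusted p = 5.0e-07) and TGFB1 by 0.71 (1.5e-18). In Antisense_NC against Ctrl_NC, 3 rose and 4 fell, and SMAD7 fell by 1.33 (adjusted p = 7.7e-11) and TGFB1 by 0.97 (2.8e-23). Under hnRNPK in the Antisense background 4 rose and 4 fell, with TGFB1 falling by 1.45 (adjusted p = 8.7e-08) and the receptor gene TGFBR1 rising by 0.73 (5.6e-06).

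Epithelial genes and antagonists of the programme moved in both directions. In CRLM1_NC against Ctrl_NC, 6 rose and 7 fell of 17 tested, beside 34.3% of all genes. TJP1, the tight junction scaffold, rose by 0.59 (adjusted p = 1.8e-08), and the claudin genes CLDN3 and CLDN4 fell by 0.50 (0.00414) and 0.45 (5.2e-15). In CRLM1_NC against Antisense_NC, 4 rose and 8 fell, with TJP1 falling by 1.02 (adjusted p = 1.1e-16) and OCLN, the occludin gene, by 0.80 (5.2e-12). Against Ctrl_NC, Antisense_NC had 9 genes higher and 7 lower, beside 66.5% of all genes. TJP1 rose by 1.62 (adjusted p = 5.6e-22), OCLN by 1.17 (3.1e-16) and GRHL2, an antagonist of ZEB1, by 1.02 (8.1e-08). ST14 fell by 0.95 (adjusted p = 4.5e-24). Under hnRNPK in the Antisense background 6 rose and 10 fell, and CLDN4 fell by 1.27 (adjusted p = 1.5e-07) and ELF3 by 1.15 (2.4e-07). With the trend removed there, 2 rose and 5 fell of 17, and the counts for the other 3 lists in the order above were 1 and 2 of 5, 1 and 8 of 16, and 0 and 3 of 10, beside 39.3% of all genes.

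With all libraries 0 genes of the 4 lists passed edgeR's test for hnRNPK in the Ctrl and CRLM1 backgrounds. Without the third library, 3 of 6, 14 of 16, 7 of 10 and 16 of 17 genes passed in the Ctrl background for the 4 lists in the order above, beside 59.6% of all genes. The median log2 differences were -0.47, -0.22, 0.35 and -0.41, against 0.03 over all genes. TAGLN, an actin-binding protein gene, fell by 1.47 (adjusted p = 2.4e-06) and ITGB1, the integrin beta 1 gene, rose by 0.91 (5.4e-10). TGFB1 fell by 0.91 (adjusted p = 1.8e-09) and TGFBR1 rose by 0.80 (6.4e-07). In the CRLM1 background without the third library 2 of 6, 13 of 17, 6 of 11 and 16 of 17 genes passed, beside 58.5% of all genes. There TAGLN fell by 1.16 (adjusted p = 5.5e-06), ITGB1 rose by 0.95 (5.8e-16), TGFB1 fell by 0.72 (1.8e-12) and TGFBR1 rose by 0.77 (2.8e-08).

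Patterns over the 18 libraries were compared by Pearson's r of log2 CPM for the 8 genes with at least 10 reads in every library, among 12959 genes that averaged 1 CPM or more. These values describe libraries that share groups and depth, and no test was made. The genes most like SNAI1 were RAB3A (0.987), CRABP2 (0.983) and DANCR (0.981). For RUNX2 they were SH3RF2 (0.960), HPCAL4 (0.951) and RNF43 (0.945). EPB41L1 (0.970), PPP2R2C (0.957) and FGFR1 (0.955) came nearest to FN1, and PAPSS2 (0.944), IL6R (0.941) and HOTAIRM1 (0.937) to FOXF1. For ZEB1-AS1 the nearest were TAF7 (0.957), the gene listed as pk with the identifier ENSG00000091436.16 (0.956), and TRMT11 (0.953). The rarer genes reached lower values. SNAI3 was most like RNF122 (0.912), FBXL16 (0.910) and ZNF581 (0.909), VIM like CNTNAP3B (0.847), MZF1-AS1 (0.818) and SNHG10 (0.814), and ZEB1 like ETNK1 (0.835), FAM126A (0.834) and RBM27 (0.834). Among the 8 genes themselves, r was highest for SNAI1 with FN1 (0.923) and lowest for SNAI1 with ZEB1-AS1 (-0.83). ZEB1 with ZEB1-AS1 gave 0.683. RNA per cell and the share of cells that express a gene cannot be told apart in these bulk libraries.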

How the data were processed

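RNA from HCT116 lines was sequenced as read pairs after library preparation with the KAPA RNA HyperPrep kit. The authors trimmed reads with the FASTX-Toolkit, aligned them to GRCh38 with TopHat2 and deposited uniquely mapped read counts per gene and FPKM values, and they compared groups with edgeR. Strand use in counting is not given in the sources used here. The deposited FPKM values served only to compare levels between genes, and 125 of the 31004 genes lacked one.

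Here the counts were tested with edgeR 4.0.16 in R 4.3.3 (TMM, filterByExpr, robust quasi-likelihood F-test, the groups of each comparison alone) with p-values adjusted by Benjamini-Hochberg across every gene in the comparison. The fits were tested on simulated counts. Floors are 3 counts per library. Alternatives were RLE size factors, no filter, DESeq2 1.42.0, 1 fit of all libraries, a replicate block, leaving out libraries, and removal of a spline trend with GC content and length (available for 96.8% of genes). Annotation came from Gencode and promoter windows from RefSeq. The genes described and the lists were chosen with earlier results of these data known. Up to 4 genes a list were named by size of change among those past the test that averaged 1 CPM or more, and some of them are not reported here.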

Additional observations from a re-analysis of the deposited data

Results flagged for a closer look

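The effect of hnRNPK on SNAI1, the gene of the repressor Snail, differed between the CRLM1 and Antisense backgrounds. The interaction term was 1.498 on the log2 scale (SE 0.331, adjusted p = 0.0432, edgeR's quasi-likelihood test). Over 20 alternatives it stayed between 1.21 and 1.69. The call was lost in 8 of them, each of which left out 1 library, and the adjusted p reached 0.134. Each of these 8 fits had at most 1 gene higher and at most 1 lower past the test over all genes. Every Antisense_hnRNPK library was below every Antisense_NC library, whereas in the CRLM1 background replicates 1 and 2 were below the NC libraries and replicate 3 was above them.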

How the results depend on the processing

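The numbers of genes past the test depended most on single libraries and on the trend with GC content and length. Leaving out 1 library at a time, or the third library of both hnRNPK groups, gave 2 to 5 genes in CRLM1_NC against Ctrl_NC, 4 to 7 in CRLM1_NC against Antisense_NC, 6 to 7 in Antisense_NC against Ctrl_NC, 0 to 2, 0 to 7 and 4 to 5 for hnRNPK in the Ctrl, CRLM1 and Antisense backgrounds, 0 to 1 for the hnRNPK effect of CRLM1 minus Ctrl and 0 to 3 for that of CRLM1 minus Antisense. Calls over all genes follow for the fits with the lowest and highest of these counts. For hnRNPK in the Ctrl background 0 of 14854 and 59.6% of 15004 genes passed. In the CRLM1 background 0 of 14731 and 58.5% of 14685 passed. For CRLM1 minus Ctrl 0 of 15576 and 3.45% of 15485 passed, and for CRLM1 minus Antisense 0 of 15565 and 26.5% of 15489. CRLM1_NC against Ctrl_NC had 2114 higher and 2170 lower of 14746, then 2324 and 2375 of 14805. CRLM1_NC against Antisense_NC had 3434 and 3829 of 14626, then 3709 and 4068 of 14716. Antisense_NC against Ctrl_NC had 4641 and 4321 of 14739, then 4691 and 4383 of 14758. For hnRNPK in the Antisense background the calls were 4492 and 4143 of 14788, then 4664 and 4721 of 14662. In CRLM1_NC and Ctrl_NC compared with Antisense_NC, the counts among the 10 genes include SNAI2 wherever the filter kept it. SNAI2 was not tested there with all libraries and was kept through the group where it is higher. In Antisense_NC against Ctrl_NC without Antisense_NC replicate 1, the 6 genes included SNAI2 and no longer ZEB1-AS1. The fit without replicate 3 of both hnRNPK groups gave 1 and 3 genes for the differences in effect, beside 3.45% and 26.5% of all genes. The fit without CRLM1_hnRNPK replicate 3 gave 2 for CRLM1 minus Antisense, beside 1862 higher and 843 lower of 15568 genes. The fit of all libraries left 1 gene in CRLM1_NC against Ctrl_NC, beside 53 higher and 49 lower of all 15668 genes. Removing the trend gave 2 genes for hnRNPK in the Antisense background and 2 for CRLM1 minus Antisense, beside 39.3% and 12.2% of all genes. Removing the trend without the third hnRNPK library was an alternative added after the data were seen. It gave 3, 2 and 3 genes in the Ctrl background, the CRLM1 background and CRLM1 minus Antisense. Over all genes the calls were 27.1%, 27.1%, and 2787 higher and 1400 lower of 15489. Of 21 single-gene results past the test, 11 kept their direction and call in every alternative run. In all, 41 single-gene values lost the call and 29 gained it with the sign unchanged. SNAI1 for hnRNPK in the CRLM1 background also gained it without CRLM1_hnRNPK replicate 3. Its sign changed there, at -0.28 (edgeR adjusted p = 0.0178).

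The 53 single-gene values that changed sign belonged to results that had not passed, and the cause was not tested. With RLE size factors, the log2 difference of ZEB1 in Antisense_NC against Ctrl_NC was -0.0029 and that of SNAI1 for hnRNPK in the CRLM1 background -0.0054. DESeq2 gave -0.0044 and -0.0053 for the same results. SNAI1 there was also -0.023 with no filter on low counts and -0.017 in the fit of all libraries. With the trend removed, Antisense_NC against Ctrl_NC gave 0.20 for SNAI3 and -0.38 for ZEB1. For hnRNPK it gave 0.14 for SNAI3, -0.19 for ZEB1 and 0.071 for FOXF1 in the Ctrl background, -0.14 for ZEB1 in the Antisense background and 0.0026 for ZEB1-AS1 in CRLM1 minus Antisense. With the third library also left out, it gave -0.38 for ZEB1, 0.11 for FOXF1 and -0.091 for VIM in Ctrl, -0.28 for ZEB1 in Antisense, 0.0596 for RUNX2 in CRLM1 minus Ctrl and 0.27 for ZEB1-AS1 in CRLM1 minus Antisense. Without replicate 3 of both hnRNPK groups the last pair stood at 0.069 and 0.23. Single libraries turned further results, given here with the lowest and highest log2 value. In CRLM1_NC against Ctrl_NC these were SNAI2 (-0.28 to 0.63) and ZEB1-AS1 (-0.20 to 0.034). In CRLM1_NC against Antisense_NC these were VIM (-0.24 to 0.43). In Antisense_NC against Ctrl_NC these were SNAI3 (-0.30 to 0.026) and ZEB1 (-0.19 to 0.17). In Ctrl_hnRNPK against Ctrl_NC these were SNAI3 (-0.66 to 0.18), ZEB1 (-0.054 to 0.41), FOXF1 (-0.28 to 0.13) and VIM (-0.078 to 0.23). In CRLM1_hnRNPK against CRLM1_NC these were SNAI1 (-0.28 to 0.13) and VIM (-0.44 to 0.22). In the hnRNPK effect of CRLM1 minus Ctrl these were SNAI2 (-0.075 to 0.82), RUNX2 (-0.23 to 0.14) and VIM (-0.57 to 0.096). In the hnRNPK effect of CRLM1 minus Antisense these were SNAI3 (-0.50 to 0.13), ZEB1 (-0.25 to 0.44) and ZEB1-AS1 (-0.54 to 0.28).

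Replicate numbers are shared between groups in the labels. Deviations of same-numbered samples correlated at -0.223 to 0.779 over 36 pairs of samples, 5 of them over 0.1, and in 14 of them the own number correlated best. Only for CRLM1_hnRNPK with Ctrl_hnRNPK, in both of which replicate 3 stood apart, were all 3 pairs over 0.1 (0.66, 0.549 and 0.779). There CRLM1_hnRNPK replicate 2 correlated best with Ctrl_hnRNPK replicate 1. Deviations are taken from the group mean, so a replicate 3 that stands apart moves replicates 1 and 2 together. These values therefore cannot show whether the 2 groups were paired. The other groups share only a number. With the replicate block the hnRNPK effect of CRLM1 minus Ctrl had 0 of 9 genes past the test, as without it. A fit with the replicate number as a block moved no number of genes past the test by over 1.5 times, and its log2 difference for ZEB1 in Antisense_NC against Ctrl_NC was -8e-04 and for SNAI1 with hnRNPK in the CRLM1 background -0.035. At this depth CDH2 was not measurable in any group, and SNAI2 was around the floor of 3 reads in the Antisense background, and with 3 libraries a group, low genes such as SNAI3, VIM and ZEB1 have wide intervals.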

Other observations

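TGFBI, a matrix protein gene induced by transforming growth factor beta and a member of the list of matrix genes, was singled out after its values were seen. It had 11, 27 and 30 reads in CRLM1_NC and 8, 14 and 21 in CRLM1_hnRNPK. In the other 12 libraries it had 0 to 2 reads, which is under the floor of 3. It entered the list counts of both comparisons of CRLM1_NC with another NC group as a gene that rose, having passed the filter on low counts through CRLM1_NC alone. No fold is given, and the 2 CRLM1 groups share 1 background.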
